A study of Homo sapiens with 6 samples.

Results

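SR proteins, heterogeneous nuclear ribonucleoproteins (hnRNPs) and the kinases that phosphorylate SR proteins were examined at the mRNA level in PANC-1 cells, an established human pancreatic carcinoma cell line, with and without maslinic acid (MA). The set was chosen by gene symbol and held 44 of the 58825 genes in the table, namely 14 SR proteins (SRSF1 to SRSF12, TRA2A and TRA2B), 19 hnRNPs, 6 kinases (CLK1 to CLK4, SRPK1 and SRPK2) and 5 SR-related proteins (SON, SRRM1, SRRM2, PNN and NKTR). RNA-seq was performed on 6 samples, of which 3 are labelled as PANC-1 cells given MA at 40 μM over 24 h, called MA PANC-1 1 to 3 here, and the other 3 as untreated PANC-1 cells, called PANC-1 1 to 3. The methods list DMSO as the alternative to MA. Whether the samples labelled untreated received DMSO is not stated there. All 6 samples come from 1 cell line, so no other pancreatic cancer cell is represented. Poly(A) RNA was sequenced, and the totals of estimated counts were 56978375, 63984133 and 58181114 for the treated samples in the order of their numbers, against 70275355, 65607669 and 59422939 for the untreated ones. These totals exceed the reads that were listed for each sample, so they are sums of estimates and not of reads. In bulk RNA a smaller number of cells expressing a gene and less RNA per cell cannot be told apart.

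SR proteins bind exonic enhancer sequences through RNA recognition motifs and recruit spliceosome components through domains rich in arginine-serine dipeptides. The hnRNPs coat nascent transcripts and often oppose SR proteins at splice sites, and many of them carry arginine-glycine-glycine repeats that contact RNA. SRPK kinases phosphorylate SR proteins in the cytoplasm and so promote their import into the nucleus, and CLK kinases phosphorylate them further in the nucleus, which releases them from nuclear speckles. The SR-related proteins carry arginine-serine stretches without the domain order of the SR family, and SON and SRRM2 form the core of nuclear speckles.

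The identity of the cells was examined with marker genes. The keratins KRT8 and KRT18, and vimentin (VIM), were abundant, with KRT18 between 277.7 and 337.7 FPKM (fragments mapped to a gene, scaled by its length and by the depth of the sample) in the 6 samples. KRT19 was at most 0.109 FPKM, although it had been listed as a PANC-1 marker. CDKN2A, which is deleted in PANC-1 cells, was at most 0.061 FPKM. Of the markers of other cell types, PTPRC, CD3E, PECAM1, CDH5, PRSS1, CPA1, INS, GCG and ALB were at or near the lowest listed value in the 6 samples, and CD68, which is also transcribed outside leukocytes, lay between 25.6 and 40.9 FPKM.

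The coding sequences of the set show the feature after which the SR family is named. Arginine-serine codon pairs, in either order, numbered 4 or more per 100 codons in 81 (0.639%) of 12676 tested genes with a coding transcript. All 14 SR proteins reached that density, from 4.07 in SRSF9 to 23.5 in SRSF2, as did 4 of the 5 SR-related proteins and, among the kinases, CLK2 and CLK3. None of the 19 hnRNPs did, and their highest density was 2.55, in HNRNPA2B1. In place of these pairs, 10 of the 19 hnRNPs had at least 3 arginine-glycine-glycine codon triplets, compared with 119 (0.939%) of the 12676 genes, and HNRNPR had the most among the hnRNPs, with 8. These densities follow from how the families are defined and are given as a description.

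For the 5 genes with an unadjusted p under 0.05 in the comparison of MA PANC-1 with PANC-1, the stretch of 20 codons with the most arginine-serine pairs, or for HNRNPR the most arginine-glycine-glycine triplets, is shown from the longest annotated coding sequence (GENCODE 29, genome build GRCh38), in the sense of the transcript, with the codons of those pairs or triplets in capitals.
SRSF11: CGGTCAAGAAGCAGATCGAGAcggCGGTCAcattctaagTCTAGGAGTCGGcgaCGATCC
SON: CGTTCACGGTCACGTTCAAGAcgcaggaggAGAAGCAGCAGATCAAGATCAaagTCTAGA
NKTR: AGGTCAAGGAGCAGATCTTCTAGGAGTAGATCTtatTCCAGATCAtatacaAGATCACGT
CLK3: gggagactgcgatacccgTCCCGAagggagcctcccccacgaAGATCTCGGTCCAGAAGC
HNRNPR: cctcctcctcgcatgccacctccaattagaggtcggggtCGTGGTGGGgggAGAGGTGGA
The SRSF11 stretch, codons 268 to 287, lies in exon 9 of 13 at chr1:70244685-70244744 on the plus strand. That of SON, codons 1862 to 1881, lies in exon 3 of 12 at chr21:33554815-33554874 on the plus strand. The NKTR stretch, codons 691 to 710, lies in exon 13 of 17 at chr3:42637775-42637834 on the plus strand. The CLK3 stretch, codons 180 to 199, runs from exon 2 into exon 3 of 13 between chr15:74619290-74620009 on the plus strand, with an intron between them. The HNRNPR stretch, codons 441 to 460, lies in exon 11 of 11 at chr1:23310985-23311044 on the minus strand. NKTR and SON had the most pairs in their stretch, with 13 and 12.

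Levels were compared first, as mean FPKM over the 6 samples. The hnRNPs were the most abundant of the 4 families, with a median of 31.6 FPKM and a range from 7.15 for HNRNPLL to 211 for HNRNPAB. The 13 SR proteins that could be tested had a median of 13.5 FPKM, between 6.53 for SRSF10 and 40.4 for SRSF6. The SR-related proteins ranged from 0.538 for NKTR to 20.7 for SRRM2. The kinases had the lowest median, 2.91 FPKM, between 1.11 for CLK4 and 10.9 for SRPK1. SRSF12 was almost silent, with 12 estimated counts in MA PANC-1 3 and none elsewhere, and it was not tested.

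**Figure D1:**
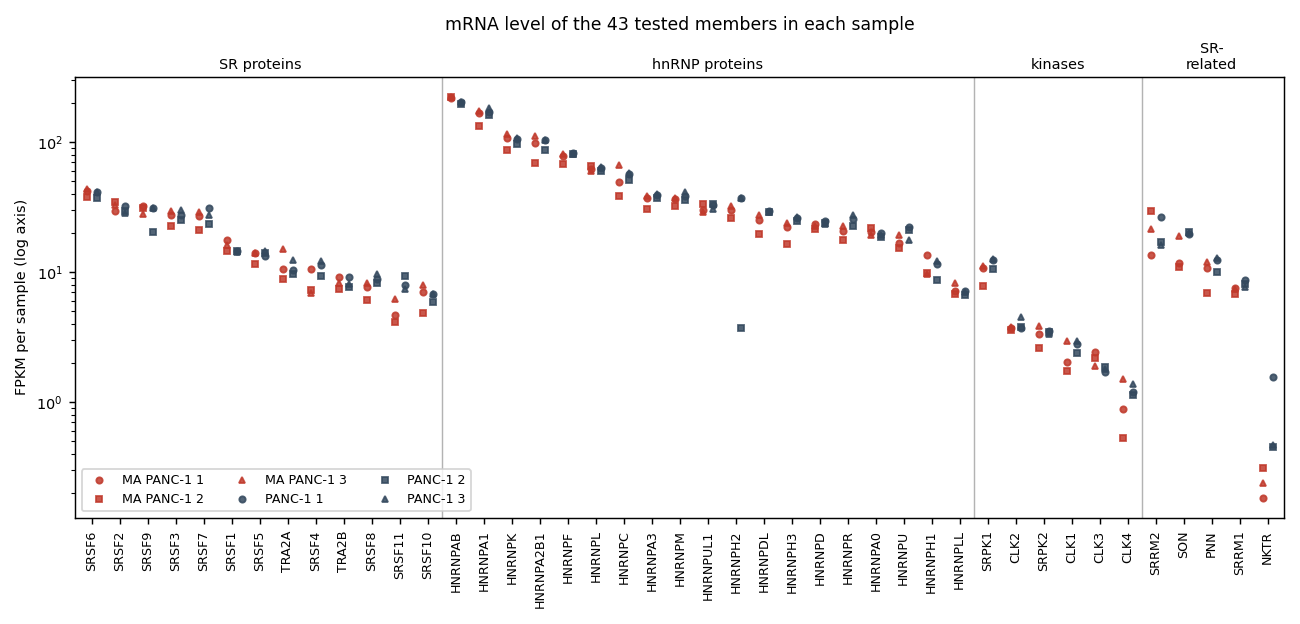
FPKM of the 43 tested genes of the set in each of the 6 samples, on a log axis, grouped by family and sorted within each family by mean FPKM; red marks are MA PANC-1 and dark marks PANC-1 samples, with the shape giving the replicate number. The hnRNPs reach 222 FPKM and the kinases stay under 13 FPKM, and PANC-1 2 stands far below the other samples for HNRNPH2.

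HNRNPAB, HNRNPA1 and HNRNPK were the 3 most abundant genes of the set and kept that order in each of the 6 samples. HNRNPAB, which binds RNA in nucleus and cytoplasm, measured 219, 222 and 222 FPKM in MA PANC-1 1 to 3 and 203, 198 and 202 FPKM in PANC-1 1 to 3. The groups did not overlap, with means of 221 ± 1.75 and 201 ± 2.66 FPKM (SD, n = 3 each), a log2 fold change of 0.18 ± 0.08 (SE) in edgeR's quasi-likelihood test, an unadjusted p of 0.055 and a Benjamini-Hochberg adjusted p of 0.452. With the GC trend of each sample removed, the log2 fold change of HNRNPAB was 0.09, with an unadjusted p of 0.142 by the same test. HNRNPA1, a splicing repressor, measured 168, 134 and 172 FPKM in MA PANC-1 and 171, 162 and 183 FPKM in PANC-1. Its groups overlapped, and the log2 fold change of -0.09 ± 0.10 was smaller than its SE. HNRNPK, which binds cytosine-rich RNA, measured 107, 87.4 and 114 FPKM in MA PANC-1 and 105, 96.3 and 107 FPKM in PANC-1, with a log2 fold change of 0.03 ± 0.10. MA PANC-1 2 was the lowest of the 6 samples for both HNRNPA1 and HNRNPK. HNRNPA2B1 followed HNRNPK, at 92.8 and 98.2 FPKM on average in MA PANC-1 and PANC-1, a distance within the SDs of the groups.

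Each gene of the set was then compared between MA PANC-1 and PANC-1 in a fit over all 17774 genes whose mean FPKM was 0.1 or more. By edgeR's quasi-likelihood test with Benjamini-Hochberg adjustment, 0 of the 43 tested genes of the set had an adjusted p under 0.05, against 0.0394% of all genes tested (7 genes). DESeq2 gave 2 (4.65% of 43, against 1.49% of all genes it tested), NKTR (adjusted p = 0.015) and SRSF11 (adjusted p = 0.017), and limma gave 0. At an unadjusted p under 0.05, 4 genes of the set were lower (9.30% of 43, against 5.86% of all genes tested) and 1 was higher (2.33%, against 5.37%). Together these made 11.6% of the set, close to the 11.2% of all genes tested. With a change of at least 2-fold required as well, 1 gene remained, NKTR, against 1.92% of all genes tested. The 3 MA PANC-1 values lay below the 3 PANC-1 values for 7 genes of the set (16.3%, against 11.1% of all genes tested), and above them for 2 (4.65%, against 8.79%). The 7 were SRSF11, SON, NKTR, SRRM1, HNRNPF, HNRNPDL and HNRNPH3, and the 2 were HNRNPAB and CLK3. Of the 43 log2 fold changes 27 were negative (62.8%, against 50.2% of all genes tested) and 16 positive. Their median was -0.05 and their range -1.69 to 0.32, while the median of all genes tested was -0.0017. With the GC trend of each sample removed, the sign turned for 12 of the 43.

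The intervals of most of these genes were narrow. For 39 of the 43 genes (90.7%) the 95% interval of the fold change lay within 2-fold in either direction, compared with 62.5% of all genes tested, and for 32 (74.4%) it lay within 1.5-fold, compared with 35.9% of all genes tested. The set had a median of 19.9 FPKM, against 2.49 for all genes tested, and these shares were not compared at a matched level. The 4 genes with an interval beyond 2-fold were SRSF11, HNRNPH2, CLK4 and NKTR. The median SD between replicates, in log2 CPM (counts in each library scaled to a common total), was 0.095 in PANC-1 and 0.159 in MA PANC-1 for the set. For the 12933 genes tested in the same range of FPKM it was 0.131 and 0.220. That range runs from 0.538 to 211 FPKM, so these genes were not matched to the levels of the set either.

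**Figure D2:**
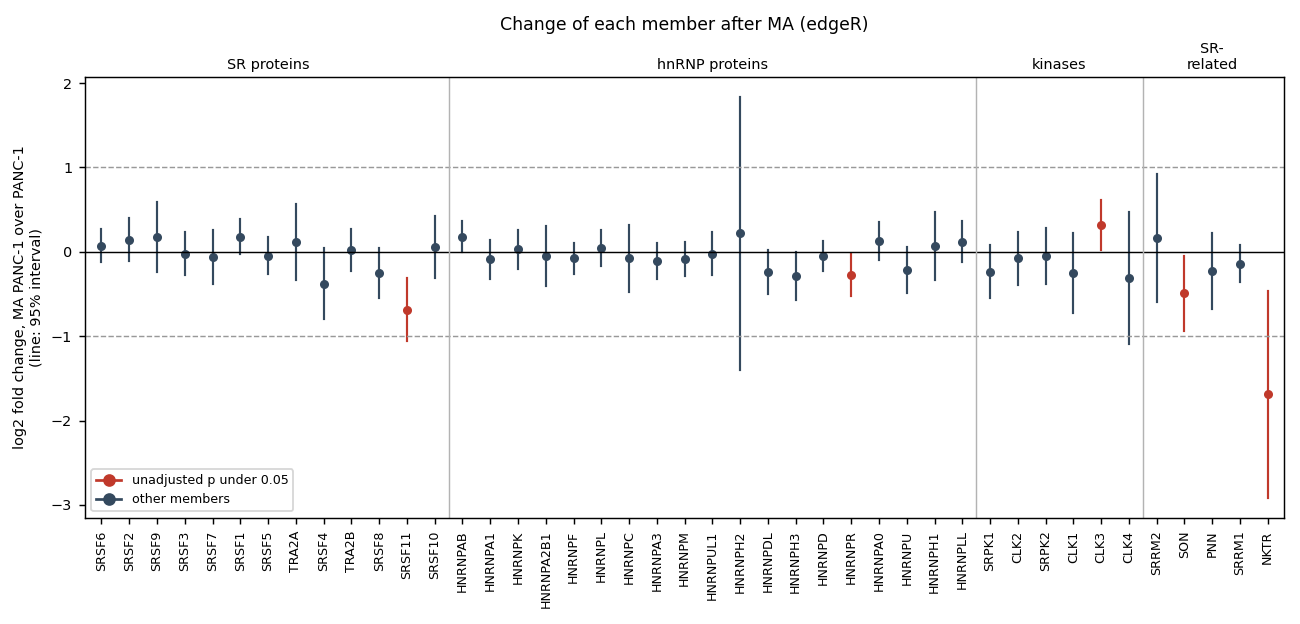
Log2 fold change of MA PANC-1 over PANC-1 for the 43 tested genes of the set by edgeR, with the 95% interval as a line, grouped by family; dashed lines mark 2-fold in either direction, and red marks the 5 genes with an unadjusted p under 0.05. The points lie between -1.69 and 0.32, and the intervals of HNRNPH2 and NKTR are the widest.

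Among the SR proteins, SRSF11 differed most between the groups. SRSF11, an SR protein that associates with U2AF at the 3′ splice site region, measured 4.68, 4.10 and 6.22 FPKM in MA PANC-1 1 to 3 and 7.96, 9.26 and 7.38 FPKM in PANC-1 1 to 3. Its groups did not overlap, and MA PANC-1 3 was the closest treated sample to the untreated ones. The log2 fold change was -0.68 ± 0.16, with an unadjusted p of 0.0035 and an adjusted p of 0.375 by edgeR's quasi-likelihood test with Benjamini-Hochberg adjustment. The unadjusted p stayed under 0.05 in each of the 18 alternative analyses, where the log2 fold change ranged from -0.85 to -0.40. The adjusted p over those alternatives ran from 0.017 with DESeq2 to 0.729 without PANC-1 1.

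The other 12 tested SR proteins had an unadjusted p over 0.05. SRSF1, the founding member of the family, showed the largest positive log2 fold change among them, 0.18 ± 0.09, with 17.6, 14.5 and 16.2 FPKM in MA PANC-1 and 14.4 to 14.6 FPKM in PANC-1. SRSF4 had the largest negative one, -0.38 ± 0.18. SRSF4 measured 10.5, 7.26 and 6.88 FPKM in MA PANC-1 and 11.3, 9.38 and 12.2 FPKM in PANC-1, so that MA PANC-1 1 fell among the untreated samples. SRSF8 stood at -0.25 ± 0.13. The remaining members, SRSF2, SRSF3, SRSF5, SRSF6, SRSF7, SRSF9, SRSF10, TRA2A and TRA2B, had log2 fold changes between -0.06 (SRSF7) and 0.17 (SRSF9). The median of the 13 was 0.02. The value of SRSF9 rests on PANC-1 2, which measured 20.2 FPKM where the other 5 samples measured 27.8 to 32.0 FPKM.

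Among the hnRNPs, HNRNPR had the lowest unadjusted p. HNRNPR, an RNA-binding protein found in spliceosomal and axonal complexes, measured 20.9, 17.6 and 22.5 FPKM in MA PANC-1 and 25.4, 22.5 and 27.4 FPKM in PANC-1. MA PANC-1 3 and PANC-1 2 met at 22.5 FPKM, so the groups overlapped. The log2 fold change was -0.27 ± 0.11, with an unadjusted p of 0.037 and an adjusted p of 0.435 by edgeR's quasi-likelihood test. With the GC trend of each sample removed it was 0.06 ± 0.11, so its direction depended on that step. Its unadjusted p was over 0.05 without MA PANC-1 1, MA PANC-1 2, PANC-1 1 or PANC-1 3.

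Of the other hnRNPs, HNRNPH3 (-0.29 ± 0.12), HNRNPDL (-0.24 ± 0.11) and HNRNPU (-0.22 ± 0.11) had the most negative log2 fold changes, each with an unadjusted p over 0.05. HNRNPH3, a relative of HNRNPH1 that binds guanine-rich RNA, measured 22.0, 16.4 and 23.9 FPKM in MA PANC-1 and 26.1, 24.8 and 26.7 FPKM in PANC-1. HNRNPDL measured 25.1, 19.5 and 27.6 FPKM in MA PANC-1 and 28.9 to 29.4 FPKM in PANC-1. MA PANC-1 2 was the lowest sample for both. By edgeR's quasi-likelihood test HNRNPH3 had an unadjusted p of 0.0505, and of 0.04999 with RLE size factors, so it lay at the threshold. In a fit with a block for the replicate number, HNRNPH3 (-0.30 ± 0.10) also had an unadjusted p under 0.05. HNRNPF also did not overlap between the groups, but its highest treated value, 80.5 FPKM, and its lowest untreated value, 80.6 FPKM, were almost equal. HNRNPA0, HNRNPA3, HNRNPC, HNRNPD, HNRNPH1, HNRNPL, HNRNPLL, HNRNPM and HNRNPUL1 had log2 fold changes between -0.11 and 0.13.

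HNRNPH2 stood apart and was singled out after its values were seen. It measured 30.2, 26.2 and 32.1 FPKM in MA PANC-1 and 37.2, 3.74 and 37.2 FPKM in PANC-1, so PANC-1 2 was far below the other 5 samples. HNRNPH2 (chrX:101408222-101414133) overlaps the read-through gene RPL36A-HNRNPH2, which had 889 estimated counts in PANC-1 2 and none elsewhere, beside 673 counts for HNRNPH2 in PANC-1 2 and 4594 to 7162 in the others. The log2 fold change of 0.22 ± 0.69 had the widest interval of the set, from -1.40 to 1.84, and it was -0.30 ± 0.11 without PANC-1 2. HNRNPL overlaps 2 genes named AC008982. The gene at chr19:38817471-38840178 had 691 counts in MA PANC-1 1, 421 in MA PANC-1 2 and none in the other 4 samples, and the gene at chr19:38844729-38845499 had 6 to 19 counts per sample. HNRNPL itself had at least 28313 counts per sample and measured 59.4 to 65.3 FPKM. Processed copies of a gene can also share its reads. The rows named as pseudogenes of HNRNPA1 held 4.08% to 4.97% of the counts of gene and copies together, and those of HNRNPC 1.99% to 3.94%.

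CLK3 was the 1 gene of the set that was higher at an unadjusted p under 0.05. CLK3, a nuclear dual-specificity kinase of SR proteins, measured 2.41, 2.18 and 1.901 FPKM in MA PANC-1 and 1.69, 1.85 and 1.81 FPKM in PANC-1. The groups did not overlap, although MA PANC-1 3 was close to PANC-1 2. The log2 fold change was 0.32 ± 0.13, with an unadjusted p of 0.039 and an adjusted p of 0.436 by edgeR's quasi-likelihood test. It was 0.42 ± 0.10 without MA PANC-1 3, and the unadjusted p was over 0.05 when any of the other 5 samples was left out. The unadjusted p was also over 0.05 with the replicate block (log2 fold change 0.31) and with limma. The other 5 kinases had negative log2 fold changes, from -0.31 ± 0.33 for CLK4 to -0.05 ± 0.14 for SRPK2, each with an unadjusted p over 0.05. CLK1 measured 2.02, 1.74 and 2.94 FPKM in MA PANC-1 and 2.82, 2.39 and 2.94 FPKM in PANC-1. CLK4 spread most, with 0.891, 0.530 and 1.52 FPKM in MA PANC-1 and 1.19, 1.14 and 1.38 FPKM in PANC-1. SRPK1 measured 10.7, 7.79 and 11.2 FPKM in MA PANC-1 and 12.4, 10.6 and 12.6 FPKM in PANC-1. Its log2 fold change was -0.24 ± 0.13, and with the replicate block its unadjusted p was under 0.05. CLK2 stood at -0.08 ± 0.13.

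Of the 5 SR-related proteins, 2 were lower at an unadjusted p under 0.05, against 5.86% of all genes tested. SON, a scaffold of nuclear speckles that promotes splicing of weak introns, measured 11.7, 10.97 and 19.0 FPKM in MA PANC-1 and 19.5, 20.3 and 20.01 FPKM in PANC-1. The untreated samples lay close together (SD 0.383), MA PANC-1 1 and 2 were far below them, and MA PANC-1 3 was just below them. The log2 fold change was -0.49 ± 0.19, with an unadjusted p of 0.034 and an adjusted p of 0.433 by edgeR's quasi-likelihood test. Without MA PANC-1 3 it was -0.76 ± 0.08, and when any of the other 5 samples was left out the unadjusted p was over 0.05.

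NKTR, a cyclophilin-type prolyl isomerase with arginine-serine stretches, showed the largest fold change of the 43 tested genes at the lowest mean level among them. It measured 0.184, 0.313 and 0.240 FPKM in MA PANC-1 and 1.57, 0.452 and 0.471 FPKM in PANC-1, with 220, 420 and 296 against 2283, 619 and 582 estimated counts. The groups did not overlap, and PANC-1 1 was more than 3 times the other untreated samples. The log2 fold change was -1.69 ± 0.52, with an unadjusted p of 0.014 and an adjusted p of 0.394 by edgeR's quasi-likelihood test. Without PANC-1 1 it was -0.85 ± 0.29, under 2-fold. The unadjusted p was over 0.05 with the GC trend removed (log2 fold change -1.33), with the replicate block as well (-1.16) and with limma on log2(FPKM + 1) (-0.50). The adjusted p over the alternatives ran from 0.015 with DESeq2 to 0.729 without PANC-1 1.

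SRRM1, a splicing coactivator that did not overlap between the groups, stood at -0.14 ± 0.09, and PNN, a protein associated with the exon junction complex, at -0.23 ± 0.19. SRRM2 varied more between replicates than between groups, with 13.5, 29.6 and 21.6 FPKM in MA PANC-1 and 26.6, 17.1 and 16.1 FPKM in PANC-1. SON and SRRM2, the 2 speckle scaffolds, thus differed in MA PANC-1 2, which in FPKM was the lowest sample for SON and the highest for SRRM2.

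**Figure D3:**
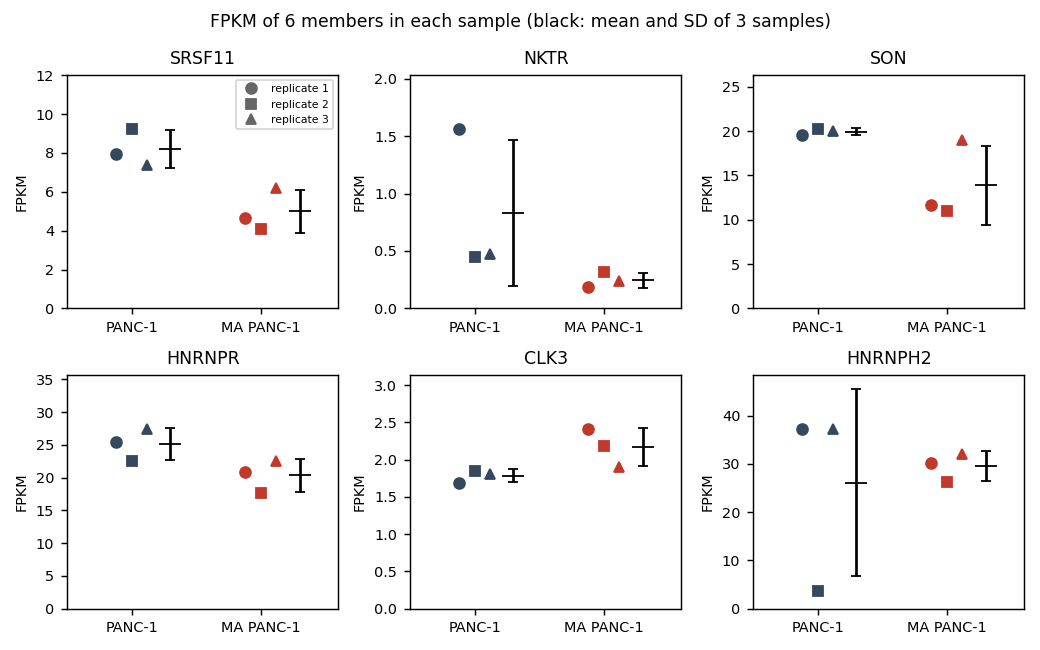
FPKM of SRSF11, NKTR, SON, HNRNPR, CLK3 and HNRNPH2 in each sample on axes from 0, with the mean and SD of the 3 samples of a group in black. SRSF11, NKTR, SON and CLK3 do not overlap between the groups, PANC-1 1 sets the mean of NKTR in PANC-1 (1.57 FPKM), and PANC-1 2 is at 3.74 FPKM for HNRNPH2.

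The samples themselves were compared over the set. In FPKM, MA PANC-1 2 was the lowest of the 6 samples for 28 of the 43 genes (65.1%), and it was also the lowest for 35.1% of all genes tested, more than any other sample. Over all genes tested it was also the sample most often highest (21.4%), and it was the highest for 5 genes of the set. In log2 CPM, scaled by TMM factors, it was the lowest for 24 of the 43, a count that was not made over all genes tested. The median deviation of the set from the mean of the 6 samples, in log2 CPM, was -0.01, -0.16 and 0.03 in MA PANC-1 1 to 3 and 0.07, -0.05 and 0.10 in PANC-1 1 to 3. Within MA PANC-1 2 the median deviation was -0.32 for the kinases, -0.29 for the SR-related proteins, -0.16 for the SR proteins and -0.12 for the hnRNPs. The SR-related proteins were lower still in MA PANC-1 1, with a median deviation of -0.50 over the 5 genes. The summed FPKM of the set was 1371, 1219 and 1447 in MA PANC-1 and 1439, 1292 and 1437 in PANC-1, so the totals of the groups overlapped.

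**Figure D4:**
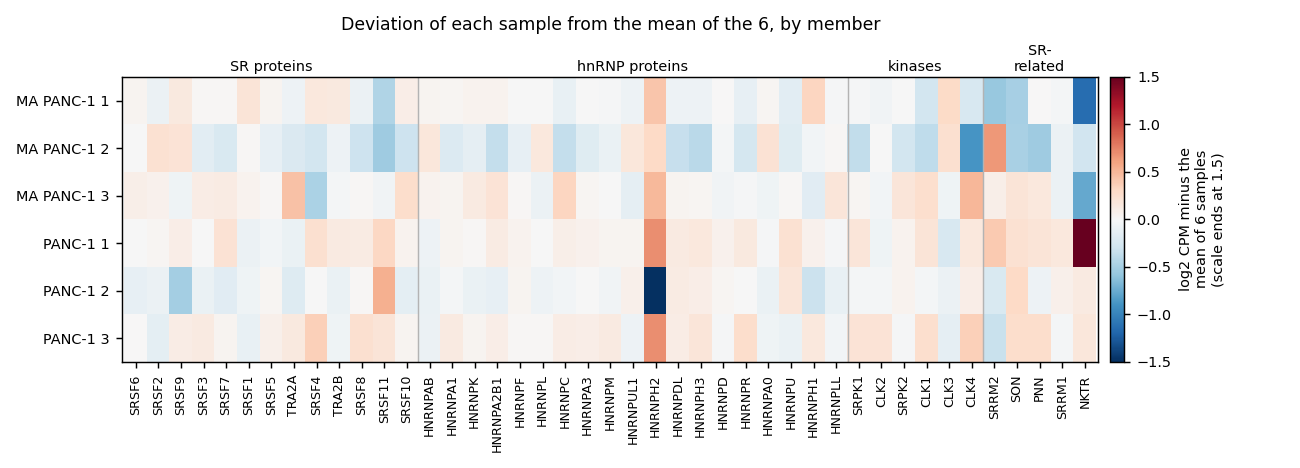
Deviation of each sample from the mean of the 6 samples, in log2 CPM, for the 43 tested genes, with blue for lower and red for higher and the color scale ending at 1.5 in either direction. The row of MA PANC-1 2 is mostly blue, with 32 genes below the mean and 24 at their lowest log2 CPM there, PANC-1 2 has 29 below the mean and 8 at their lowest, and the darkest cells belong to HNRNPH2 in PANC-1 2 and NKTR in PANC-1 1. These counts were not made over all genes tested.

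GC content moved with these deviations. The transcripts of the set had a median GC content of 41.2%, compared with 48.8% for all genes tested. In MA PANC-1 2 the deviation of a gene and the GC content of its longest transcript had a Pearson r of 0.50 over the 43 genes, which share that library, and of 0.36 over all genes tested. In the other 5 samples r over the set lay between -0.33 and 0.01. The mean from which each sample deviates includes MA PANC-1 2, so these values are not independent of its own. The 21 genes of the set with the lower GC content had a median deviation of -0.22 in MA PANC-1 2, and the other 22 of -0.10. Weighted by counts, the GC content of MA PANC-1 2 was 51.2%, while that of the other samples was 49.8% to 50.3%.

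With the GC trend of each sample removed before the edgeR fit, the median log2 fold change of the set was 0.09 in place of -0.05, and 12 genes had an unadjusted p under 0.05. Of these, 5 were lower (11.6% of 43, against 6.4% of all genes tested in this fit) and 7 higher (16.3%, against 7.57%). The 5 were SRSF11 (-0.41), SON (-0.49), HNRNPH3 (-0.19), HNRNPDL (-0.18) and HNRNPUL1 (-0.13). The 7 were SRSF1 (0.35), SRSF3 (0.20), SRSF6 (0.29), SRSF10 (0.24), HNRNPK (0.16), HNRNPLL (0.36) and CLK3 (0.34). NKTR (-1.33 ± 0.58) had an unadjusted p of 0.057. By this fit 0 genes of the set had an adjusted p under 0.05. Without MA PANC-1 2 and with no GC step, 5 genes had an unadjusted p under 0.05, 3 lower (6.98%, against 5.81% of all genes tested) and 2 higher (4.65%, against 4.51%), shares close to those of all genes. Of these, SRSF11 (-0.59), NKTR (-1.95) and HNRNPH3 (-0.17) were lower and SRSF1 (0.21) and HNRNPAB (0.14) higher. The part of GC content in the differences between the groups was not tested beyond these fits.

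**Figure D5:**
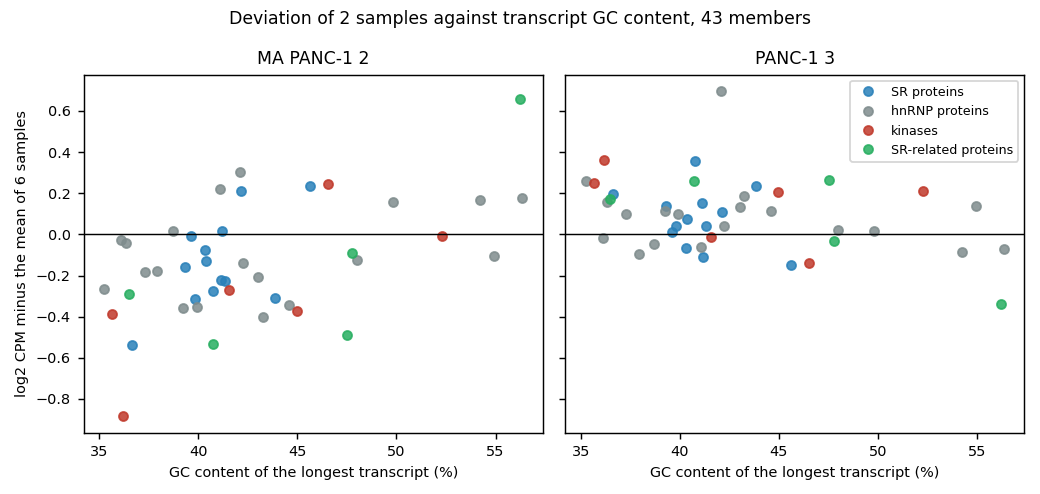
Deviation from the mean of the 6 samples, in log2 CPM, against the GC content of the longest transcript for the 43 tested genes, in MA PANC-1 2 and in PANC-1 3, with color giving the family. In MA PANC-1 2 the genes of low GC content lie lower (Pearson r of 0.50), and in PANC-1 3 they lie slightly higher (-0.33). Both panels use the same mean of the 6 samples, so they are not independent.

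Other genes of RNA processing were taken from 5 lists, and 0 of their genes had an adjusted p under 0.05 by edgeR's quasi-likelihood test. The counts at an unadjusted p under 0.05 stand against 5.86% lower and 5.37% higher over all genes tested. Of 35 core spliceosome genes, 1 was lower at an unadjusted p under 0.05 (2.86%) and 0 higher, with a median log2 fold change of 0.07. That gene, SNRPD1, a subunit of the Sm ring, measured 15.1, 12.3 and 14.7 FPKM in MA PANC-1 and 17.0, 17.4 and 17.8 FPKM in PANC-1 (log2 fold change -0.27 ± 0.09). The GC content of SNRPD1 was 40.5%, and MA PANC-1 2 was its lowest sample. The list had a median GC content of 50.3%, against 41.2% for the set. MA PANC-1 2 was the lowest sample in FPKM for 40% of the list, against 65.1% of the set.

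Of 30 other splicing regulators, 5 were lower (16.7%, against 5.86% of all genes tested) and 1 higher (3.33%, against 5.37%), with a median of -0.08. The 5 include MATR3, whose groups overlap once its identifiers are summed. MA PANC-1 2 was the lowest sample in FPKM for 60% of the list, against 35.1% of all genes tested. It was the lowest for each of the 5 lower genes, whose GC content was 36.8% to 40.1%. For the higher gene, RBM10 (60.3%), it was the highest. MBNL1, a regulator of developmental splicing switches, measured 6.76, 3.91 and 4.95 FPKM in MA PANC-1 and 9.35, 8.53 and 9.003 FPKM in PANC-1 (-0.75 ± 0.17). Its paralog MBNL2 measured 4.14, 2.12 and 3.65 FPKM in MA PANC-1 and 5.09, 5.16 and 6.47 FPKM in PANC-1 (-0.73 ± 0.23). Neither gene overlapped between the groups. MATR3, a nuclear matrix protein, had a log2 fold change of -0.97 ± 0.33 under 1 of its 2 identifiers. The identifiers overlap on the same strand, and their counts together, as CPM, were 184.4, 117.2 and 244.9 in MA PANC-1 and 242.2, 180.9 and 240.5 in PANC-1, which overlap between the groups. RBM10, a regulator of exon skipping, was higher, with 45.9, 55.6 and 45.3 FPKM in MA PANC-1 and 37.4 to 38.1 FPKM in PANC-1 (0.41 ± 0.12). RBM25 (-0.42 ± 0.18) and LUC7L2 (-0.22 ± 0.09) were the other lower genes, named after their values were seen.

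Of 5 relatives of the hnRNPs, 1 was lower and 0 higher. The lower gene was SYNCRIP (-0.31 ± 0.10), a paralog of HNRNPR. It measured 19.5, 16.7 and 22.1 FPKM in MA PANC-1 and 25.2, 22.9 and 25.98 FPKM in PANC-1. Its GC content was 36.3%, and MA PANC-1 2 was its lowest sample. Of 14 genes of nonsense-mediated decay and the exon junction complex, 2 were lower (14.3%, against 5.86% of all genes tested) and 1 higher (7.14%, against 5.37%). These were the kinase SMG1 (-0.46 ± 0.10), the adaptor UPF2 (-0.53 ± 0.22) and SMG5 (0.38 ± 0.14), which links UPF1 to decay enzymes. SMG1 measured 3.06, 2.71 and 3.47 FPKM in MA PANC-1 and 4.25, 4.56 and 4.23 FPKM in PANC-1, without overlap. MA PANC-1 2 was the lowest sample in FPKM for SMG1 and UPF2 (GC content 43.2% and 40.3%) and the highest for SMG5 (57.6%). It was the lowest for 50% of this list, against 35.1% of all genes tested. Of 12 other kinases, phosphatases and import factors of SR proteins, 11 were tested, and 1 was lower (9.09%) and 1 higher. The lower gene was TOP1 (-0.36 ± 0.14), a topoisomerase with SR protein kinase activity, which was also lowest in MA PANC-1 2. The 1 higher gene, DYRK1A (0.84 ± 0.33), had under 1 FPKM in each sample and was named after its values were seen. The fits gave totals per gene, and splice isoforms were not analysed here.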

How the data were processed

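Values of 6 PANC-1 samples, 3 treated with 40 μM MA for 24 h and 3 untreated, grouped as labelled, were used. Per gene and sample the authors deposited FPKM values, with 0.0001 as the lowest value, and estimated counts, which are whole numbers that were not normalized. The submitters' processing notes name cutadapt 1.9, HISAT2 2.0.4, StringTie 1.3.4d, edgeR and DESeq2, but the genome build is not given in the sources used here. All 44 identifiers of the set were found on the same strand in GENCODE 29 (GRCh38), 19 at the identical position and the others with another start or end. The kit marks strand, but use of strand in counting is not given in the sources used here. Of 58825 genes, 30337 had no count, and 0 columns of single samples were left unused.

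Genes whose mean FPKM was 0.1 or more were tested with edgeR 4.0.16 (quasi-likelihood, TMM) and p-values adjusted by Benjamini-Hochberg over all of them. The counts are estimates, so precision rests on the spread between replicates. P-values measure the spread between samples described as biological replicates, and an exact permutation test of 3 against 3 samples cannot go below 0.1. SE is the log2 fold change divided by the square root of F. The set and the lists were chosen with earlier results of these data known. Where a symbol had several identifiers, that with the highest mean FPKM was used. Every member of the set was named, and values of each sample were given for those with an unadjusted p under 0.05 or a change of at least 1.5-fold and for the 3 most abundant. Of each list, at most 3 genes per direction with the smallest p under 0.05 and at least 1 FPKM were named. Values of each sample of other members were added after they were seen. GC content was that of the longest transcript, and its trend was a smooth curve (span 0.5) over genes whose mean count was 100 or more. Alternatives were DESeq2 1.42.0, limma 3.58.1 on log2(FPKM + 0.1) and log2(FPKM + 1), RLE and upper-quartile factors, other filters, a replicate block, GC removal, leaving out each sample, summing overlapping genes and, chosen after seeing the data, halved counts. The fits were tested on simulated data. R 4.3.3, numpy 2.4.6, scipy 1.17.1 and pandas 2.3.3 were used.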

Additional observations from a re-analysis of the deposited data

How the results depend on the processing

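The number of genes of the set with an unadjusted p under 0.05 was 5 in the fit reported (11.6%, against 11.2% of all genes tested). It was 3 with limma on log2(FPKM + 1) (6.98%, against 11.2%) and 12 with the GC trend removed (27.9%, against 14.0%). With the GC trend removed together with the replicate block it was 12 (27.9%, against 12.5%). When 1 sample was left out it was 2 to 11. It was 2 without PANC-1 1 (4.65%, against 6.63%), 3 without PANC-1 3 (6.98%, against 6.76%) or MA PANC-1 1 (6.98%, against 7.93%), and 11 without MA PANC-1 3 (25.6%, against 18.1%). The number with an adjusted p under 0.05 was 2 with DESeq2 and 0 in the other alternatives. The number whose groups did not overlap, 9 (20.9%, against 19.9% of all genes tested), was 11 to 18 when 1 sample was left out, which makes overlap less likely for any gene. It was lowest without PANC-1 1 or PANC-1 3 (25.6%, against 27.4% and 28.0%), 17 without PANC-1 2 (39.5%, against 31.0%) and 18 without MA PANC-1 3 (41.9%, against 38.0%). On log2 CPM it was 13 (30.2%, against 20.6%). The median log2 fold change of the set, -0.05, was 0.09 with the GC trend removed, with or without the replicate block (0.0920 and 0.0917). It ran from -0.119 without PANC-1 2 to -0.029 without MA PANC-1 2 when 1 sample was left out. With limma it was -0.094 on log2(FPKM + 0.1) and -0.089 on log2(FPKM + 1). Over all genes tested, the number with an unadjusted p under 0.05, 1995, was 1178 to 3213 when 1 sample was left out, lowest without PANC-1 1, 1201 without PANC-1 3 and highest without MA PANC-1 3, and the number with an adjusted p under 0.05, 7, was 263 with DESeq2, 12 with a filter at 1 FPKM, 33 with the GC trend removed (1 with the replicate block as well), 24 without MA PANC-1 2, 3 without PANC-1 2 and 4 without MA PANC-1 1. The cause was not tested.

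The sign of the log2 fold change turned under at least 1 alternative for 23 of the 43 tested genes, and for 12 with the GC trend removed. The turned value had an unadjusted p under 0.05 for SRSF3 (0.20 with the GC trend removed) and HNRNPH2 (-0.30 without PANC-1 2). Of the 8 genes followed through each alternative, it turned for HNRNPR (0.061 with the GC trend removed, 0.052 with the replicate block as well), HNRNPA1 (0.019 and 0.020) and HNRNPK (-0.0075 and -0.0074 with limma at pseudocounts of 0.1 and 1, and -0.029 without MA PANC-1 3, also -0.013 without PANC-1 2, within a range of -0.029 to 0.103 when 1 sample was left out). The other 5, SRSF11, SON, NKTR, CLK3 and HNRNPAB, kept their direction in the alternatives run. SON had an unadjusted p over 0.05 in 5 of 18 alternatives, CLK3 in 8 of 18 and NKTR in 3 of 17 (GC trend removed, the same with the replicate block, and limma at a pseudocount of 1), since its level excluded it from the filter at 1 FPKM. In the paired fit with a replicate block, 6 genes of the set were lower and 0 higher at an unadjusted p under 0.05, and 0 had an adjusted p under 0.05. The 6 were SRSF11, SON, NKTR, HNRNPR, HNRNPH3 and SRPK1, and CLK3 was not among the genes under 0.05. Over all genes tested, 1237 (6.96%) were lower and 978 (5.5%) higher in that fit, 2215 together, and 0 had an adjusted p under 0.05. Samples of the same number correlated by 0.029, 0.050 and 0.072 in their deviations, each best with its own number, a hint from the data only. Summing the identifiers of a symbol was not run, since each gene of the set has 1.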
